A study of Mustela putorius furo with 2 samples.

Results

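The nuclear-encoded genes of the mitochondrial respiratory chain were examined in single-nucleus RNA profiles of the ferret cortex. Members were all features whose symbol begins with NDUF, UQCR or ATP5, or is COX followed by a digit, together with any of the 4 SDH genes. The rule found 52 genes among 28156 features, of which 14296 carried a symbol. Members were chosen by name and not by their values. They comprised 22 subunits of complex I, 1 subunit of complex II, 3 subunits of complex III, 9 subunits of complex IV, 7 subunits of ATP synthase, the ATP synthase inhibitor ATP5IF1, 5 assembly factors of complex I and 4 assembly factors of complex IV. The 42 subunit genes are called subunits below and the 9 assembly factor genes are called assembly factors. SDHC was the member found for complex II, and SDHA, SDHB and SDHD were not analysed here. NDUFA4L2, which carries a complex I name, is related to a subunit of complex IV and was counted there.

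The respiratory chain is a series of protein complexes in the inner mitochondrial membrane. Complex I takes electrons from NADH and complex II takes them from succinate. Complex III passes them to cytochrome c and complex IV passes them to oxygen. Complexes I, III and IV pump protons, and ATP synthase lets the protons back to make ATP. Some subunits are made from mitochondrial DNA, while the members studied here come from nuclear genes, so their transcripts are made in the nucleus. In the brain most ATP comes from this pathway, and neurons spend much of it on ion pumping.

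The 2 libraries came from somatosensory cortex of ferrets (Mustela putorius furo) labelled as DCX knockout, although the design text speaks of a knockdown. DCX is the gene of doublecortin, which binds microtubules in young migrating neurons. One library was made from the upper band and the other from the deeper band, by their region labels, and both carry the same genotype, so the comparison is between bands within the mutant. Age, sex, number of animals and the means of making the mutant are not given in the labels, and wild-type tissue was not analysed here. There was 1 library per band and so no replicate, and band, animal and library preparation cannot be told apart. Intervals are 95% intervals for counting error, taken as exact Poisson intervals for levels, exact conditional binomial intervals for log2 ratios and exact binomial intervals for shares.

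DCX was read in both bands, at 78.7 CPM (76.3 to 81.1) and 77.1 CPM (74.8 to 79.5), where CPM is the number of molecules (UMIs, unique molecular identifiers) scaled to 1e6 of the group. The libraries held 66253015 and 78352064 UMIs, and 6248 upper-band and 8211 deeper-band nuclei were analysed at medians of 7979.5 and 4952 UMIs. The libraries shared 24 cell barcodes. Clustering without the member genes gave 28 clusters, of which 26 were named after fixed marker genes into 7 classes. Names ending in "-like" mean resemblance. In each of the 4 classes with most nuclei the class's own markers summed to 6809 CPM or more in both bands. Excitatory neuron-like nuclei numbered 3173 and 3465, inhibitory neuron-like nuclei 1019 and 784, astrocyte-like nuclei 387 and 806 and oligodendrocyte-like nuclei 926 and 2525, upper band before deeper band as in all pairs below. The excitatory nuclei of both bands fell in the same 12 clusters, in different proportions. A FOXP2 and SYT6 cluster held 543 and 122 of them, an LGR5 cluster 505 and 163, a SYT10 cluster 191 and 994 and a RORB cluster 251 and 857, while an MCHR2 cluster held 458 and 600. Within excitatory nuclei the marker list of each other class summed to between 11.7 and 299.6 CPM. Some such sums were larger in the other large classes. Inhibitory markers summed to 1016 and 965 CPM in astrocyte-like and 1585 and 1320 CPM in oligodendrocyte-like nuclei. Excitatory markers summed to 947 and 870 CPM in inhibitory, 591 and 451 CPM in astrocyte-like and 571 and 432 CPM in oligodendrocyte-like nuclei. Oligodendrocyte precursor markers summed to 2138 and 2129 CPM in astrocyte-like nuclei. The part of such markers in the results was not tested.

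Members took 0.123% of all UMIs in the upper-band nuclei and 0.143% in the deeper-band nuclei. In every one of the 4 large classes the summed level was higher in the deeper band, by 0.21 to 0.23 on the log2 scale. In excitatory neuron-like nuclei the sums were 1118 CPM (1107 to 1129) and 1290.4 CPM (1279 to 1302), which puts the log2 ratio of deeper over upper band at 0.21 (0.19 to 0.23). Inhibitory neuron-like nuclei had 1456 and 1709 CPM, a log2 band ratio of 0.23 (0.19 to 0.27). Astrocyte-like nuclei had 1932 and 2273 CPM, a log2 band ratio of 0.23 (0.16 to 0.31). Oligodendrocyte-like nuclei, which make myelin, had 1496 and 1729 CPM, a log2 band ratio of 0.21 (0.15 to 0.27). The intervals of these 4 ratios overlap, and the difference between classes was not tested.

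The band difference was seen in the subunits and was close to 0 in the assembly factors. Subunits summed to 784 and 943 CPM in excitatory neuron-like nuclei, a log2 band ratio of 0.27 (0.25 to 0.29). Assembly factors, which build the complexes but are not part of them, summed to 273 and 264 CPM in the same nuclei, a log2 band ratio of -0.05 (-0.09 to -0.01). The intervals of the subunit and assembly factor ratios overlapped in the oligodendrocyte-like class and in none of the other 3 large classes. The inhibitory class had subunit sums of 1009 and 1240.4 CPM, a log2 band ratio of 0.30 (0.25 to 0.34). Assembly factors there had 373 and 369.9 CPM, a log2 band ratio of -0.01 (-0.09 to 0.06). In the glial classes the same order was seen with wider intervals. The log2 band ratio of subunits was 0.29 (0.20 to 0.38) in astrocyte-like and 0.21 (0.14 to 0.27) in oligodendrocyte-like nuclei. That of assembly factors was 0.01 (-0.14 to 0.16) and 0.05 (-0.10 to 0.19) in those classes.

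**Figure D1:**
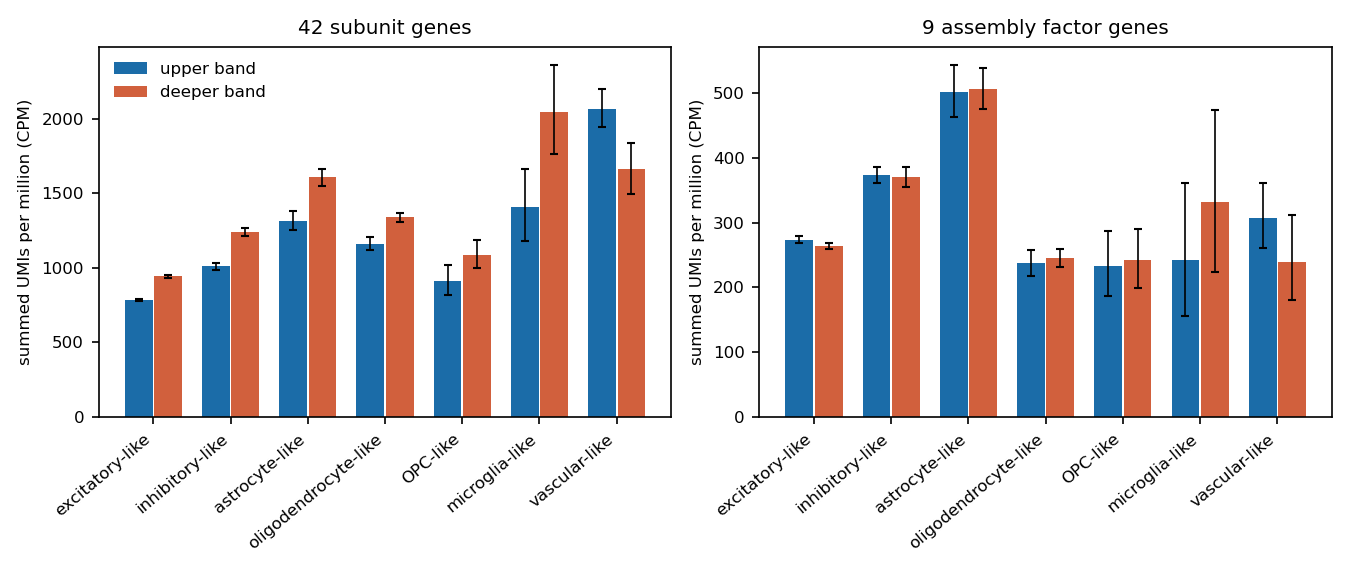
Summed CPM of the 42 subunit genes (left) and the 9 assembly factor genes (right) in each named class, upper band in blue and deeper band in orange, with exact Poisson 95% intervals as error bars and 1 library per bar. The subunit bar of the deeper band is the taller one in every class but the vascular-like, while the assembly factor bars of the 4 large classes stand at 273 and 264 CPM in excitatory, 373 and 369.9 CPM in inhibitory, 502 and 506 CPM in astrocyte-like and 237 and 245 CPM in oligodendrocyte-like nuclei.

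For single genes, a member was counted as higher or lower in the deeper band when its log2 CPM ratio reached 0.5 in size with an interval clear of 0, among genes with at least 30 UMIs over both libraries in the class. In excitatory neuron-like nuclei 12 of the 47 members tested were higher and 0 were lower. Over all 16742 genes tested in that class, 4.91% were higher and 8.54% were lower by this rule. In inhibitory neuron-like nuclei 9 of 46 members were higher and 0 lower, against 3.95% and 3.41% of all genes. In astrocyte-like nuclei 7 of 42 members were higher and 0 lower, against 4.15% and 3.78%. In oligodendrocyte-like nuclei 4 of 46 members were higher and 0 lower, against 3.88% and 3.31%. The median log2 band ratio of the members was 0.16, 0.21, 0.21 and 0.12 in these 4 classes in the same order, beside medians over all genes of -0.03, -0.00, 0.01 and 0.01. In the main analysis no assembly factor was counted in any of the 4 classes, and this is stated for its settings only. In astrocyte-like nuclei COX18 and COX11 passed 0.5 in size, but their intervals include 0. Their log2 band ratios were 1.03 (-0.15 to 2.38) and 0.74 (-0.21 to 1.78). COX10 and NDUFAF7 read below 0 in that class, at -0.13 and -0.42, also with intervals that include 0. Among the members named here, the filter on 30 UMIs left out COX4I2, COX6A2, COX6B2, COX7B2 and NDUFA4L2 in all 4 classes, ATP5F1D in all but the excitatory class, and NDUFAB1, NDUFAF1 and UQCR10 in the astrocyte-like class.

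**Figure D2:**
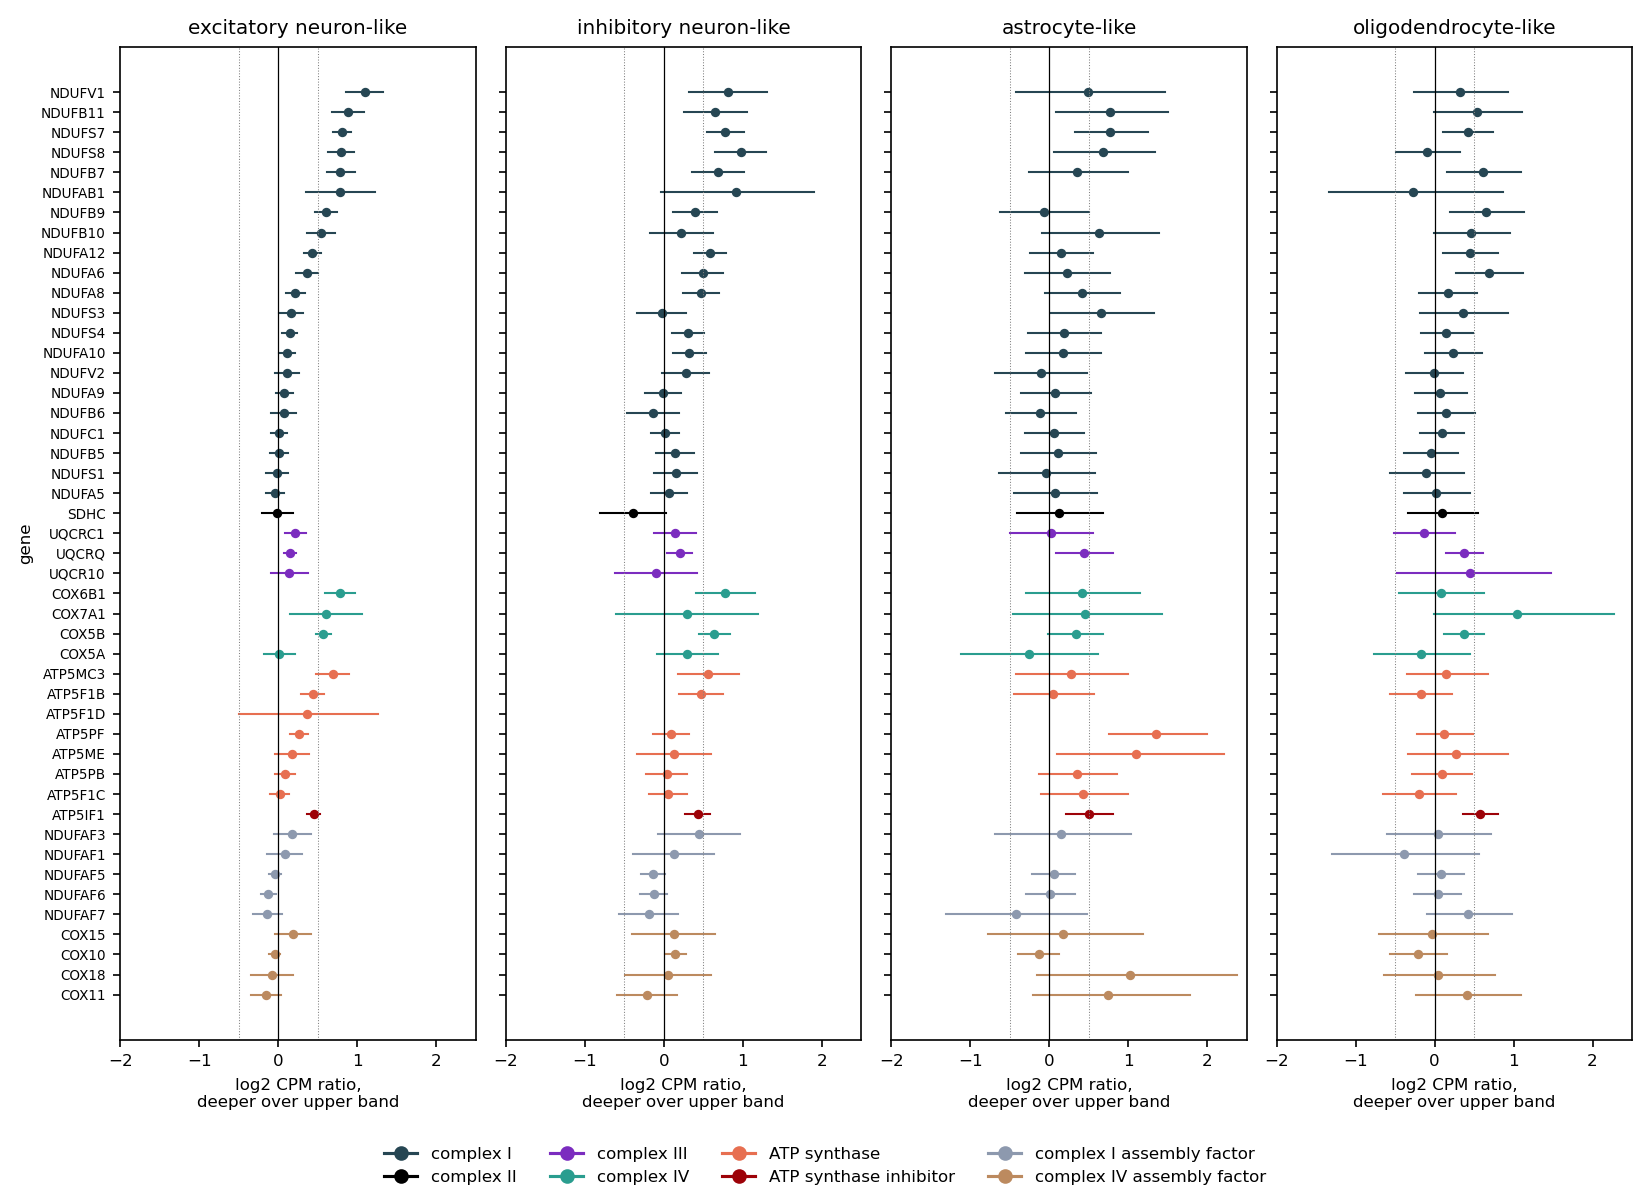
Log2 CPM ratio of deeper over upper band (horizontal axis) for members with at least 30 UMIs in the class, with exact conditional binomial 95% intervals, in the 4 large classes and coloured by complex. Dotted lines mark ratios of 0.5 and -0.5. In the excitatory panel the complex I genes spread from NDUFA5 at -0.04 to NDUFV1 at 1.09, while the 9 assembly factors at the bottom lie near 0.

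Complex I gave 8 of the 12 excitatory calls and 22 of the 47 members tested in that class. Its largest difference was in NDUFV1 (ENSMPUG00000004041), the flavoprotein that binds NADH and takes its electrons. NDUFV1 had 220 and 485 UMIs in excitatory neuron-like nuclei, or 5.92 and 12.6 CPM, a log2 band ratio of 1.09 (0.86 to 1.33). The inhibitory neuron-like class had 62 and 81 UMIs, or 7.27 and 12.8 CPM, a log2 band ratio of 0.81 (0.31 to 1.31). In the glial classes the gene also read higher in the deeper band, but with intervals that include 0. It had 12.5 and 17.6 CPM in astrocyte-like and 15.04 and 18.72 CPM in oligodendrocyte-like nuclei.

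NDUFS7 and NDUFS8 carry iron-sulfur clusters on the path of electrons to ubiquinone. NDUFS7 (ENSMPUG00000008260) was higher in the deeper band in all 4 classes with intervals clear of 0. Its levels were 23.8 and 41.7 CPM in excitatory, 31.8 and 54.6 CPM in inhibitory, 45.8 and 78.5 CPM in astrocyte-like and 50.0 and 66.7 CPM in oligodendrocyte-like nuclei. The log2 band ratios were 0.81 (0.69 to 0.93), 0.78 (0.55 to 1.02), 0.78 (0.32 to 1.25) and 0.42 (0.11 to 0.74). When nuclei were thinned to 1500 UMIs the excitatory ratio of NDUFS7 was 0.51 (0.19 to 0.84). NDUFS8 (ENSMPUG00000004193) had 12.5 and 21.6 CPM in excitatory and 15.7 and 30.9 CPM in inhibitory neuron-like nuclei, log2 band ratios of 0.79 (0.63 to 0.96) and 0.97 (0.65 to 1.30). The inhibitory ratio of NDUFS8 was 0.53 (-0.30 to 1.37) after thinning. In oligodendrocyte-like nuclei NDUFS8 stood at 33.2 and 31.1 CPM, a log2 band ratio of -0.09 (-0.49 to 0.32).

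The other core subunits described here, NDUFS1, NDUFV2 and NDUFS3, differed less between bands in the excitatory class. NDUFS1, the largest core subunit and a carrier of iron-sulfur clusters, had 22.4 and 22.1 CPM in excitatory neuron-like nuclei, a log2 band ratio of -0.02 (-0.16 to 0.12). NDUFV2, the partner of NDUFV1, had 18.9 and 20.4 CPM, a log2 band ratio of 0.11 (-0.04 to 0.26). NDUFS3, another core subunit, had 18.2 and 20.4 CPM, a log2 band ratio of 0.16 (0.01 to 0.32), and in astrocyte-like nuclei 24.2 and 38.2 CPM, a log2 band ratio of 0.66 (0.03 to 1.33). Subunits of the same complex thus differed between bands by unequal amounts, from about no difference in NDUFS1 to more than 1 log2 unit in NDUFV1.

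The 15 accessory subunits surround the core and stabilise it. In excitatory neuron-like nuclei 5 of them were counted as higher, namely NDUFB11, NDUFB7, NDUFAB1, NDUFB9 and NDUFB10. Of the 15 ratios 14 were above 0, against 45.4% of all genes tested in that class. NDUFB11 (ENSMPUG00000013112) had 8.33 and 15.4 CPM, a log2 band ratio of 0.88 (0.68 to 1.09), and NDUFB7 had 10.996 and 18.99 CPM, a log2 band ratio of 0.79 (0.61 to 0.97). Both belong to the part of the membrane arm whose genes carry the NDUFB name. NDUFB7 was also counted in inhibitory and oligodendrocyte-like nuclei, at 22.6 and 34.6 CPM in the latter, a log2 band ratio of 0.62 (0.16 to 1.09). Among members with at least 100 UMIs, NDUFA6, NDUFB9 and NDUFB7 had the highest log2 band ratios in the oligodendrocyte-like class. NDUFA6, which contacts the acyl carrier protein, had 27.0 and 43.4 CPM, a log2 band ratio of 0.68 (0.27 to 1.12). NDUFB9 had 22.1 and 34.8 CPM, a log2 band ratio of 0.65 (0.19 to 1.14). NDUFA5, NDUFB5 and NDUFC1 stood within 0.05 of 0 in excitatory nuclei. NDUFB6 had 60.8 and 56.3 CPM in astrocyte-like nuclei, a log2 band ratio of -0.11 (-0.55 to 0.34), and NDUFV2 had 35.8 and 33.2 CPM there, a log2 band ratio of -0.11 (-0.69 to 0.48).

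Complex II, read through SDHC, had intervals that include 0 in all 4 large classes, while complex III was higher in the deeper band. The log2 band ratio of the complex III sum was 0.16 (0.10 to 0.23) in excitatory, 0.17 (0.04 to 0.30) in inhibitory, 0.28 (-0.01 to 0.57) in astrocyte-like and 0.25 (0.06 to 0.45) in oligodendrocyte-like nuclei, and the astrocyte-like interval includes 0. SDHC (ENSMPUG00000014439), a membrane anchor of complex II, had 11.13 and 11.04 CPM in excitatory neuron-like nuclei, a log2 band ratio of -0.01 (-0.21 to 0.19). Among members of the inhibitory neuron-like class it was the one with the lowest ratio, at 15.61 and 11.96 CPM and -0.38 (-0.81 to 0.03), and after thinning it stood at 0.28 (-0.84 to 1.39). UQCRQ, a small subunit of complex III that contacts cytochrome b, was higher in all 4 classes with intervals clear of 0. Its levels were 73.4 and 81.4 CPM in excitatory, 83.0 and 95.6 CPM in inhibitory, 78.3 and 106 CPM in astrocyte-like and 91.1 and 118 CPM in oligodendrocyte-like nuclei, with ratios from 0.15 to 0.44. UQCRC1, a large core protein of complex III, had 22.9 and 26.6 CPM in excitatory nuclei, for a log2 band ratio of 0.22 (0.08 to 0.35). UQCR10, another small subunit, had 7.74 and 8.54 CPM, a log2 band ratio of 0.14 (-0.09 to 0.38).

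Complex IV showed the largest ratio of any complex in the neuron-like classes. Its sum was 64.3 and 91.9 CPM in excitatory neuron-like nuclei, a log2 band ratio of 0.52, and 79.0 and 119 CPM in inhibitory neuron-like nuclei, a log2 band ratio of 0.59. COX5B (ENSMPUG00000011327), a zinc-binding peripheral subunit, made up most of it. COX5B had 41.3 and 61.3 CPM in excitatory nuclei, for a log2 band ratio of 0.57 (0.48 to 0.66), and 48.9 and 76.3 CPM in inhibitory nuclei, a log2 band ratio of 0.64 (0.45 to 0.83). In oligodendrocyte-like nuclei COX5B had 77.4 and 100.3 CPM, a log2 band ratio of 0.37 (0.12 to 0.63). COX6B1, which links the monomers of complex IV, had 9.30 and 16.0 CPM in excitatory and 12.7 and 21.7 CPM in inhibitory nuclei, log2 band ratios of 0.78 (0.59 to 0.98) and 0.78 (0.40 to 1.15). COX5A, a subunit on the matrix side, differed less between bands. It had 11.5 and 11.6 CPM in excitatory nuclei, for a log2 band ratio of 0.01 (-0.18 to 0.21).

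Of the ATP synthase genes, ATP5MC3 was the member counted in both neuron-like classes. ATP5MC3 encodes one of the versions of the rotor ring subunit c, and the other versions were not analysed here. It had 8.09 and 13.1 CPM in excitatory nuclei, for a log2 band ratio of 0.69 (0.48 to 0.90), and 12.4 and 18.4 CPM in inhibitory nuclei, a log2 band ratio of 0.57 (0.17 to 0.96). The catalytic subunit ATP5F1B had 18.52 and 25.03 CPM in excitatory nuclei, for a log2 band ratio of 0.43 (0.29 to 0.58). In oligodendrocyte-like nuclei ATP5F1B had 36.7 and 32.5 CPM, a log2 band ratio of -0.18 (-0.56 to 0.22), and the central stalk subunit ATP5F1C had 27.0 and 23.5 CPM, a log2 band ratio of -0.20 (-0.65 to 0.27). The astrocyte-like class had its widest band difference in ATP5PF, a subunit of the peripheral stalk, at 29 and 123 UMIs, or 24.2 and 61.9 CPM, a log2 band ratio of 1.36 (0.76 to 1.99). In excitatory nuclei ATP5PF had 31.1 and 37.2 CPM, a log2 band ratio of 0.26 (0.15 to 0.37). ATP5ME, a small membrane subunit, was also counted in the astrocyte-like class, at 9.16 and 19.6 CPM from 11 and 39 UMIs.

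ATP5IF1 (ENSMPUG00000015536), the inhibitor that stops ATP synthase from running in reverse, was higher in the deeper band in all 4 classes with intervals clear of 0. It had 60.9 and 83.0 CPM in excitatory, 73.2 and 98.5 CPM in inhibitory, 112 and 159 CPM in astrocyte-like and 96.9 and 144 CPM in oligodendrocyte-like nuclei. The log2 band ratios were 0.45 (0.37 to 0.53), 0.43 (0.27 to 0.59), 0.50 (0.21 to 0.80) and 0.57 (0.36 to 0.80). It was higher in the deeper band in 12 of 12 excitatory clusters.

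The assembly factors held the members with the lowest excitatory ratios. COX11, a copper carrier for complex IV, had 13.36 and 12.01 CPM, a log2 band ratio of -0.15 (-0.34 to 0.03). NDUFAF7, a methyltransferase that acts in complex I assembly, had 13.6 and 12.3 CPM, a log2 band ratio of -0.14 (-0.32 to 0.04). NDUFAF6, a complex I assembly factor, had 50.0 and 45.8 CPM, a log2 band ratio of -0.13 (-0.22 to -0.03). Of these 3, NDUFAF6 alone had an excitatory interval clear of 0. COX10 (ENSMPUG00000003525), which makes the heme A precursor of complex IV, was the member with most UMIs. COX10 had 87.3 and 84.5 CPM in excitatory nuclei, for a log2 band ratio of -0.05 (-0.12 to 0.02), and 119 and 132 CPM in inhibitory nuclei, a log2 band ratio of 0.14 (0.01 to 0.28). In astrocyte-like nuclei it had 168 and 153 CPM, a log2 band ratio of -0.13 (-0.40 to 0.13), and in oligodendrocyte-like nuclei 43.3 and 37.4 CPM, a log2 band ratio of -0.21 (-0.57 to 0.15). A separate list of 29 other genes for assembly of these complexes, not matched by the naming rule, showed 3 of 26 tested genes higher and 0 lower in excitatory nuclei. Its sum was 667 and 666 CPM, a log2 band ratio of -0.00 (-0.03 to 0.02). The 3 were DMAC1, SCO2 and SURF1.

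Agreement over classes was counted for the 42 members tested in all 4 classes. Of them 21 had a ratio above 0 in every class, and 0 had a ratio below 0 in every class. Over all genes tested in the 4 classes, 13.3% were above 0 in every class and 11.4% were below 0 in every class. The excitatory and inhibitory calls shared 8 members, which is 8 of 12 and 8 of 9. After thinning to 1500 UMIs they shared 4, namely ATP5MC3, COX5B, NDUFB9 and NDUFS7, which is 4 of 12 and 4 of 7. ATP5IF1, NDUFS7 and UQCRQ were the 3 members with intervals clear of 0 in all 4 classes. For the shared calls and for these 3 members, the matching shares over all genes are not given here. These counts are thus not read as particular to the members.

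Because the bands held the excitatory clusters in different proportions, the sum was also taken within clusters. All 22 clusters of the 4 large classes had a higher sum in the deeper band, with ratios from 0.09 to 0.48, and in 19 of them the interval was clear of 0. The 12 excitatory clusters ranged from 1047 to 1225 CPM in the upper band and from 1229 to 1438 CPM in the deeper band. These ranges of values did not overlap, but the intervals of the clusters beside the gap did. They were 1148 to 1305 CPM for the highest upper-band cluster and 1206 to 1252 CPM for the lowest deeper-band cluster. The SYT10 cluster, the largest excitatory cluster of the deeper band, had 1096 and 1266 CPM, a log2 band ratio of 0.21 (0.15 to 0.27). The FOXP2 and SYT6 cluster, the largest excitatory cluster of the upper band, had 1072 and 1271 CPM, a log2 band ratio of 0.25 (0.17 to 0.33). Within a band, excitatory nuclei with upper-layer markers had nearly the same sum as those with deep-layer markers. The log2 ratio of upper-layer-like over deep-layer-like was 0.02 (-0.02 to 0.06) in the upper band and -0.00 (-0.06 to 0.05) in the deeper band. For assembly factors alone it was 0.12 (0.04 to 0.20) and 0.06 (-0.06 to 0.18). At gene level NDUFS7 was higher in the deeper band in 11 of 11 excitatory clusters with enough UMIs, NDUFV1 in 9 of 9, COX5B in 11 of 11, NDUFA5 in 3 of 11 and COX11 in 1 of 9. NDUFS7, NDUFV1 and COX11 were picked for their excitatory ratios over these same nuclei, so their counts give no separate support. The band and its library are the same thing in each of these comparisons, so clusters are not replicates.

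**Figure D3:**
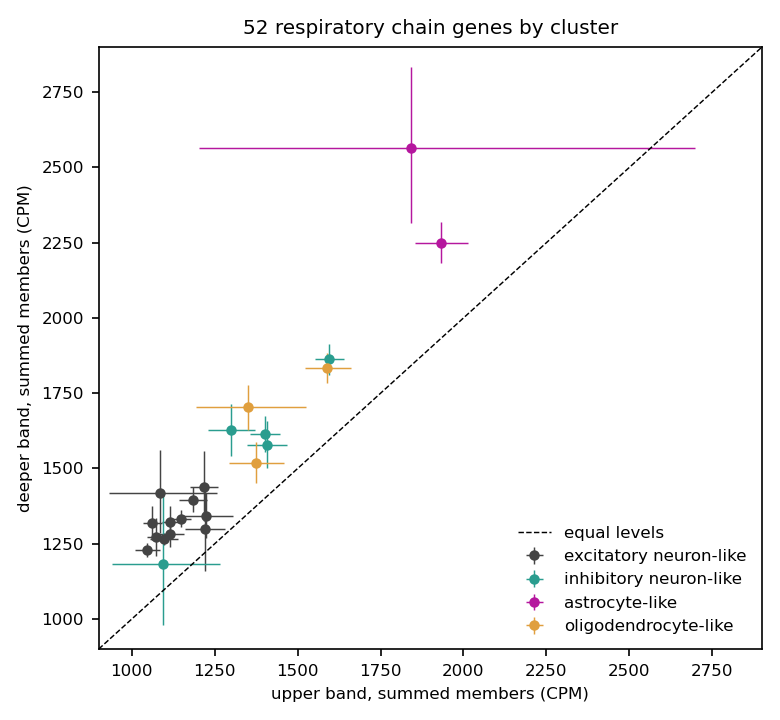
Summed CPM of the 52 members in each of the 22 clusters of the 4 large classes, upper band on the horizontal axis and deeper band on the vertical axis, with exact Poisson 95% intervals; the dashed line marks equal levels and the axes do not begin at 0. All 22 points lie above the line, and the excitatory clusters, in dark grey, form the lowest group.

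Other gene groups were read in the same way to place the size of this difference. Cytosolic ribosomal proteins, which build the ribosomes of the cytoplasm, differed between the bands in the same direction as the members. Their sum was 879.6 and 1069.9 CPM in excitatory nuclei, for a log2 band ratio of 0.28 (0.26 to 0.30), with 8 of 33 tested genes higher and 0 lower by the same rule. Their ratio was 0.37 in inhibitory, 0.38 in astrocyte-like and 0.33 in oligodendrocyte-like nuclei, and their part in the members' difference was not tested. Mitochondrial ribosomal proteins, which translate the subunits made from mitochondrial DNA, had a smaller ratio of 0.12 (0.10 to 0.14) in excitatory and 0.03 (-0.05 to 0.11) in astrocyte-like nuclei. Genes of the citric acid cycle and pyruvate dehydrogenase, which feed the chain with NADH and succinate, had 556 and 550.4 CPM in excitatory nuclei, for a log2 band ratio of -0.02 (-0.04 to 0.01), and 0 of 15 were counted. Glycolysis genes had a ratio of their sum of -0.00 (-0.02 to 0.02) in excitatory nuclei with a median over the 12 genes of 0.30. In oligodendrocyte-like nuclei their sum was 1046 and 898 CPM, a log2 band ratio of -0.22 (-0.29 to -0.15). Mitochondrial carriers had an excitatory ratio of -0.05 (-0.07 to -0.03).

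**Figure D4:**
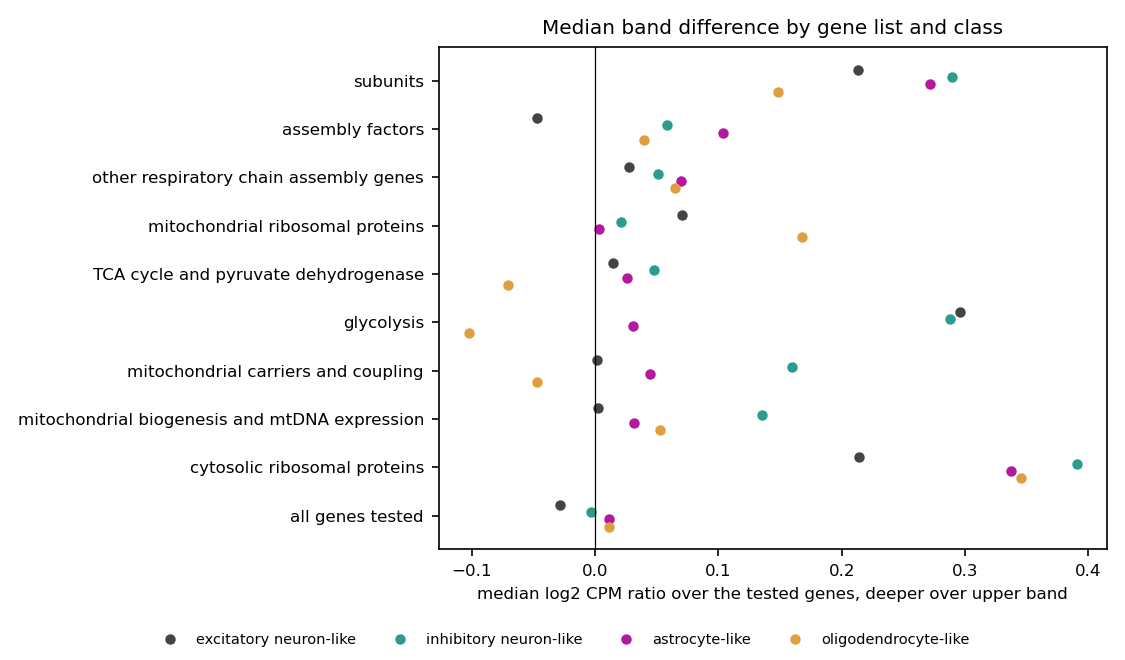
Median log2 CPM ratio of deeper over upper band over the tested genes of each list (horizontal axis), with 1 point per large class. The subunits lie at 0.21 in excitatory and 0.29 in inhibitory nuclei and the assembly factors at -0.05 and 0.06. The cytosolic ribosomal proteins lie at 0.21 and 0.39 and the glycolysis genes at 0.30 and 0.29, while all tested genes lie near 0.

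PPARGC1A, a coactivator that raises the transcription of many respiratory chain genes, is not a member and was read beside the members. It had 134 and 180 CPM in excitatory neuron-like nuclei, a log2 band ratio of 0.43 (0.38 to 0.48). It had 278 and 306 CPM in inhibitory neuron-like nuclei, a log2 band ratio of 0.14 (0.05 to 0.22), and 537 and 563 CPM in astrocyte-like nuclei, a log2 band ratio of 0.07 (-0.07 to 0.21). Oligodendrocyte-like nuclei had 20.8 and 18.9 CPM of PPARGC1A. Within excitatory nuclei its log2 band ratio was 0.19 (0.11 to 0.26) in the upper-layer-like and 0.15 (-0.09 to 0.38) in the deep-layer-like subset. The list of mitochondrial biogenesis genes that holds PPARGC1A had a sum ratio of -0.26 (-0.28 to -0.25) in excitatory and 0.11 (0.08 to 0.15) in inhibitory nuclei, with medians of 0.00 and 0.14.

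Classes were then compared within each library. Excitatory neuron-like nuclei had the lowest summed level of the 7 named classes in both bands. Inhibitory neuron-like nuclei stood above them by a log2 ratio of 0.38 (0.35 to 0.41) in the upper band and 0.41 (0.38 to 0.44) in the deeper band. Astrocyte-like nuclei stood above them by 0.79 (0.73 to 0.85) and 0.82 (0.77 to 0.86), and oligodendrocyte-like nuclei by 0.42 in both bands. The smaller classes followed with wider intervals. Oligodendrocyte precursor-like nuclei had 1255 and 1443 CPM and microglia-like nuclei 1802 and 2522 CPM. These are shares of each class's UMIs, so they do not give molecules per nucleus. Per nucleus, excitatory nuclei held a mean of 13.1 and 14.3 member UMIs at median depths of 10752 and 10408 UMIs, and astrocyte-like nuclei 5.99 and 5.61 at 2801 and 2420 UMIs. At a common 1500 UMIs the means were 1.69 and 1.95 in excitatory and 2.85 and 3.41 in astrocyte-like nuclei, after 16 and 5 excitatory and 14 and 52 astrocyte-like nuclei were left out.

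By gene, 28 of 47 members were higher in inhibitory than in excitatory nuclei in both bands with intervals clear of 0, and 0 were lower. Over all genes 25.5% were higher and 17.7% were lower by this rule. For astrocyte-like nuclei 28 of 46 members were higher and 0 lower, against 22.9% and 20.9% of all genes. For oligodendrocyte-like nuclei 28 of 46 were higher and 2 were lower, against 29.1% and 29.7%. The 2 lower members, COX10 and NDUFAF5, are assembly factors. The order of the 4 large classes was read for the 29 members with at least 100 UMIs in each of them. Of these, 23 had their lowest level in the excitatory class and 6 in the oligodendrocyte-like class. The highest level was in the astrocyte-like class for 22, in the inhibitory class for 4 and in the oligodendrocyte-like class for 3. The same order over all genes is not given here, so it is not read as particular to the members.

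**Figure D5:**
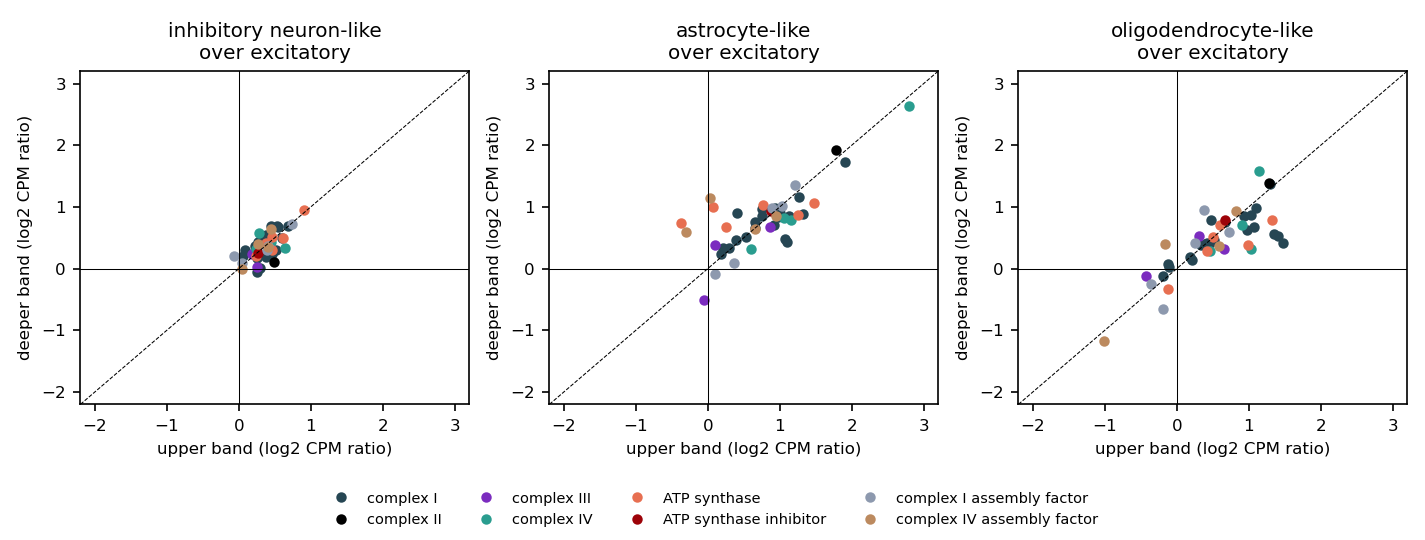
Log2 CPM ratio of each member in a class over excitatory neuron-like nuclei, upper band on the horizontal axis and deeper band on the vertical axis, for members with at least 30 UMIs in the pair of classes in each band; points are coloured by complex and the dashed line marks equal ratios. Most points lie in the upper right part of each panel. In the oligodendrocyte-like panel the points below 0 in both bands include COX10, NDUFAF1, NDUFAF5 and ATP5F1C, and COX10 is the lowest at -1.01 and -1.17.

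The glial classes parted in the assembly factors COX10 and NDUFAF5, and over a narrower range in some subunits. ATP5F1C had log2 ratios over excitatory nuclei of 0.26 (-0.22 to 0.70) and 0.67 (0.36 to 0.98) in astrocyte-like nuclei. In oligodendrocyte-like nuclei its ratios were -0.12 (-0.51 to 0.25) and -0.33 (-0.61 to -0.06). NDUFS3 and NDUFA10 had their highest level in astrocyte-like and their lowest in oligodendrocyte-like nuclei. In astrocyte-like nuclei assembly factors stood above the excitatory level by 0.88 (0.76 to 1.00) and 0.94 (0.85 to 1.03), as did subunits by 0.75 and 0.77. In oligodendrocyte-like nuclei subunits stood above it by 0.57 (0.51 to 0.63) and 0.51 (0.47 to 0.54), while the assembly factor sum had log2 ratios of -0.20 (-0.33 to -0.08) and -0.11 (-0.19 to -0.02). COX10 set the sign of that sum, which without it had ratios of 0.06 (-0.08 to 0.20) and 0.21 (0.12 to 0.30). Of the 9 assembly factors 5 read above the excitatory level in both bands, namely COX15, COX18, NDUFAF3, NDUFAF6 and NDUFAF7, and 3 read below it in both, namely COX10, NDUFAF1 and NDUFAF5. COX18, which helps to insert a complex IV subunit into the membrane, had ratios of 0.82 (0.18 to 1.41) and 0.94 (0.51 to 1.35). Of the 44 members with at least 100 UMIs in 2 or more classes, COX10 had the widest range over the classes that passed this filter, 2.00 log2 units between astrocyte-like and oligodendrocyte-like nuclei. Against excitatory nuclei COX10 was at 0.95 and 0.86 in astrocyte-like nuclei and at -1.01 (-1.32 to -0.72) and -1.17 (-1.39 to -0.97) in oligodendrocyte-like nuclei. NDUFAF5, which modifies NDUFS7, took the same order, at 146 and 151 CPM in astrocyte-like and 61.0 and 64.6 CPM in oligodendrocyte-like nuclei. NDUFAF6 had 116 and 117 CPM in astrocyte-like and 59.7 and 61.3 CPM in oligodendrocyte-like nuclei.

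Among the same 44 members, SDHC and NDUFB6 followed COX10 in range and had another order, with both glial classes above the neuron-like ones. SDHC had 38.3 and 41.7 CPM in astrocyte-like and 27.0 and 28.8 CPM in oligodendrocyte-like nuclei, against 11.13 and 11.04 CPM in excitatory nuclei. The astrocyte-like over excitatory ratio of SDHC was 1.78 (1.31 to 2.23) and 1.92 (1.56 to 2.26). NDUFB6, an accessory subunit of complex I, had 60.8 and 56.3 CPM in astrocyte-like nuclei against 16.2 and 17.0 CPM in excitatory nuclei, log2 class ratios of 1.90 (1.53 to 2.26) and 1.73 (1.43 to 2.02). In the vascular-like class ATP5IF1 had 251.5 and 179 CPM and COX5B 183 and 109 CPM. The microglia-like class, from 12 and 14 UMIs, had 122 (62.8 to 212) and 155 CPM (84.7 to 260) of COX5B.

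Inhibitory neuron-like nuclei were not uniform. The cluster led by LRRC38, MYO18B and BTBD11 had the highest sum, at 1595 and 1862 CPM. A small CHODL, NOS1 and NPY cluster of 22 and 12 nuclei had the lowest, at 1094 (941 to 1265) and 1181 CPM (979 to 1412). Nuclei with markers of the medial ganglionic eminence (MGE-like), the birthplace of parvalbumin and somatostatin cells, stood above those with markers of the caudal eminence (CGE-like) by 0.14 (0.08 to 0.20) and 0.13 (0.07 to 0.19). For assembly factors the same ratio was 0.23 (0.12 to 0.35) and 0.32 (0.19 to 0.45). PPARGC1A had 328 and 346 CPM in MGE-like and 162 and 222 CPM in CGE-like nuclei.

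Tissue-restricted subunits of complex IV were rare. COX4I2, a version of subunit 4 known from lung and from the mural cells of vessels, had 21 and 5 UMIs in vascular-like nuclei, or 42.3 and 21.8 CPM. In excitatory neuron-like nuclei it had 2 and 3 UMIs, which puts the vascular-like over excitatory log2 ratio at 9.62 (7.59 to 12.75) and 8.12 (5.76 to 10.81). A COX4I2 UMI was present in 6.13% and 2.55% of vascular-like nuclei at median depths of 1156 and 1122 UMIs, and in 0.0630% and 0.0866% of excitatory nuclei, a class taken as lacking the gene. Of all COX4I2 UMIs, 21 of 25 in the upper band and 5 of 12 in the deeper band lay in this class. COX7A1, the version of subunit 7a known from heart and skeletal muscle, had 12.5 and 17.1 CPM in astrocyte-like nuclei from 15 and 34 UMIs, against 1.80 and 2.73 CPM in excitatory nuclei. COX6A2, COX6B2 and COX7B2, known from muscle or testis, had under 30 UMIs each over both libraries, and NDUFA4L2 had 0. The partners COX4I1, COX6A1, COX7A2, COX8A, NDUFA4, ATP5MC1 and ATP5MC2, and the subunits UQCRFS1 and ATP5F1A, were not analysed here.

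The vascular-like class ran against the other named classes, with summed member levels of 2626 CPM (2485 to 2772) and 2078 CPM (1896 to 2273), a log2 band ratio of -0.34 (-0.49 to -0.19). This class was small, at 261 and 157 nuclei with medians of 1156 and 1122 UMIs, and markers of other classes moved with it. Excitatory markers summed to 1754 and 3886 CPM in it, with 0 of the 12 at 0, and oligodendrocyte markers to 1765 and 466 CPM. Its own 11 markers in the tables summed to 2525 and 3054 CPM. Other gene lists moved in this class too. Cytosolic ribosomal proteins had 6782 and 2779 CPM, a log2 band ratio of -1.29 (-1.41 to -1.16), with 24 of 25 tested genes lower. The ratio was -0.54 for the citric acid cycle list and -0.42 for mitochondrial carriers. It was 0.03 (-0.20 to 0.25) for glycolysis and 0.37 (0.15 to 0.58) for mitochondrial biogenesis genes. The part of these markers and lists in the result was not tested.

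Depth moved with the glial results. Deeper-band oligodendrocyte-like nuclei were shallower, at a median of 1922 UMIs against 2252, and shallower nuclei of this class had more member CPM. In nuclei of 1000 to 2000 UMIs the sums were 1650.1 and 1929 CPM. In nuclei of 2000 to 3000 UMIs they were 1548 (1477 to 1622) and 1631 CPM (1578 to 1686), and in nuclei of 3000 to 5000 UMIs 1288 and 1467 CPM. After thinning to 1500 UMIs, which left out 83 and 451 nuclei of this class, the ratio was 0.14 (0.06 to 0.21). The part of the nuclei left out in that value was not tested. Deeper-band astrocyte-like nuclei were also shallower. The astrocyte-like sums were 1813 and 2442 CPM at 1000 to 2000 UMIs and 1840 and 2306 CPM at 2000 to 3000 UMIs. At 3000 to 5000 UMIs the sums were 2015 (1889 to 2147) and 2119 CPM (1993 to 2252), with intervals that overlap. In excitatory nuclei of 8000 to 12000 UMIs the sum was 1119 and 1301 CPM, and in inhibitory nuclei of the same range 1438 and 1698 CPM. In the neuron-like classes the deeper band was thus higher in this depth range, and in both glial classes its sum was the higher one in each of the 3 ranges.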

How the data were processed

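Nuclei from frozen somatosensory cortex were captured in 10x Genomics droplets, per the labels' protocols. The authors deposited whole-number UMI counts for each gene and barcode, not normalized, per the file headers, which give software version 3.1.0. The submitters' processing notes name Cell Ranger 6.2.1 and 2.1.1. Genome build, annotation and the handling of intronic reads, which can change the counts of long genes in nuclei, are not given in the sources used here.

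Barcodes with at least 500 genes were kept, and Scrublet (scanpy 1.11.5) removed 843 (11.9%) and 1397 (14.5%) as doublets. The expected rates given to it were lower, at 5.67% and 7.69%. Free RNA was not corrected. Nuclei of both libraries were clustered together on 2000 variable genes without the members (30 components, 15 neighbours, Leiden resolution 1) and named by marker genes. The 2 unnamed clusters carried markers of more than 1 class. UMIs summed over a class of a library were scaled to CPM. Because nuclei are not replicates, no p-value was computed, and intervals (scipy 1.17.1) cover counting error only. The code was tested on simulated data. Alternatives covered scaling, weighting of nuclei, doublets, filters, thinning and clustering.

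Named members were the 3 highest and 3 lowest band ratios per class among those with at least 100 UMIs, the 8 with the widest range over classes, SDH genes, tissue-restricted subunits and catalytic or regulatory members, and other genes were named after their values were seen. The values of 1 member are not reported here on their own, although it stays in the sums and counts. Members and lists were chosen with earlier results of these data known. Sequences and coordinates were not used here.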

Additional observations from a re-analysis of the deposited data

Results flagged for a closer look

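The summed members of the vascular-like class had a deeper over upper log2 ratio of -0.34 (-0.49 to -0.19), while the other 6 named classes had ratios above 0, from 0.20 in oligodendrocyte precursor-like to 0.48 in microglia-like nuclei. The opposite direction drew attention to it, and the difference between the classes was not tested. Cytosolic ribosomal proteins in the vascular-like class had a log2 band ratio of -1.29 (-1.41 to -1.16).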

How the results depend on the processing

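No paired analysis was possible because each band has 1 library, and no library could be left out. For the 18 summed ratios and counts, 147 alternative values stayed within the interval of the main value, or within 1.5 times of a count, 23 moved and 0 reversed. Median-of-ratios scaling gave band ratios of 0.24 in excitatory nuclei, and class ratios over excitatory nuclei of 0.30 (upper) and 0.31 (deeper) for inhibitory and 0.74 (deeper) for astrocyte-like nuclei. Leaving out COX10 gave a band ratio of 0.23 in excitatory nuclei and oligodendrocyte-like over excitatory ratios of 0.50 and 0.49. With no doublet removal the inhibitory band ratio was 0.19 and the inhibitory over excitatory ratios were 0.32 and 0.30. With 2 times as many nuclei removed the astrocyte-like band ratio was 0.32, the upper-band astrocyte-like over excitatory ratio 0.70 and the astrocyte-like count 11 in place of 7. Thinning gave 0.14 for the oligodendrocyte-like band ratio, 0.33 and 0.37 for inhibitory over excitatory and 0.47 for oligodendrocyte-like over excitatory in the upper band. Thinning, which leaves fewer UMIs, also gave 2 higher members in astrocyte-like nuclei (ATP5PF and NDUFB11), 2 in oligodendrocyte-like nuclei (NDUFA6 and NDUFB7) and 1 lower member in inhibitory nuclei (UQCR10). A minimum of 1000 detected genes gave 0.38, and the mean of each nucleus's CPM gave 0.48, for oligodendrocyte-like over excitatory in the deeper band. The mean of each nucleus's CPM gave 7 higher members in oligodendrocyte-like nuclei in place of 4. Beyond the fewer UMIs left by thinning, the cause was not tested. For single named members 186 alternative values stayed, 6 moved, each under thinning, and 0 were counted as reversed. The inhibitory band ratio of SDHC, at -0.38 (-0.81 to 0.03), nonetheless changed sign under thinning, with both intervals including 0. Leaving COX10 out of the assembly factor sum was added after the data were seen. It turned the oligodendrocyte-like over excitatory ratios of that sum from -0.20 and -0.11 to 0.062 and 0.21, gave -0.094 for its inhibitory band ratio and 0.41 for inhibitory over excitatory in the deeper band, and left its other 6 ratios within their intervals. At this depth members under 30 UMIs in a class could not be compared.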
